A study of Rattus norvegicus with 6 samples.

Results

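The 10 genes described here encode the cyclins, kinases and inhibitors that govern passage through the G1 phase of the cell cycle. They were taken by symbol from the deposited table, and each of the 10 symbols matched 1 of its 32623 rows. They comprise the D-type cyclins Ccnd1, Ccnd2 and Ccnd3, their kinases Cdk4 and Cdk6, the E-type cyclins Ccne1 and Ccne2 with their kinase Cdk2, and the inhibitors Cdkn1b and Cdkn1c. Total RNA of myocardial tissue had been sequenced from 3 sham-operated wild-type rats and from 3 wild-type rats with 30 min of ischemia by ligation of the left anterior descending coronary artery. The labels gave the same 30 min for the sham rats, for which a thoracotomy but no ligation is described, and called the animals male, and strain and age were not given in the sources used here. Myocardium holds cardiomyocytes, endothelial cells, fibroblasts, mural cells and blood cells, so a level below is an average over them, and which part of the heart was sampled was not stated.

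In a cell that receives growth signals, D-type cyclins accumulate and activate Cdk4 or Cdk6, which phosphorylate the retinoblastoma protein and its relatives. This releases E2F transcription factors, which switch on E-type cyclins and the genes of DNA replication, and cyclin E with Cdk2 then completes the step into S phase. Cdkn1b (p27) and Cdkn1c (p57) bind these complexes and inhibit Cdk2. Adult cardiomyocytes have largely left the cell cycle, and most dividing cells of the adult heart are not cardiomyocytes.

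Promoter sequence was taken from RefSeq (build GRCr8) for the 5 members with an entry, Ccnd3, Ccne1, Cdk2, Cdk4 and Cdkn1b. The windows of Cdk4 and Ccnd3 are shown because these genes had the smallest p-values of the family and opposite directions. Each window is the 250 bases before the start site, at chr7:64771203-64771452 on the plus strand for Cdk4 and at chr9:20897876-20898125 on the minus strand for Ccnd3. Capitals mark the E-box CACGTG, which Myc-Max dimers and related factors bind, the GC box GGGCGG and the CCAAT box, each searched on both strands.
Cdk4: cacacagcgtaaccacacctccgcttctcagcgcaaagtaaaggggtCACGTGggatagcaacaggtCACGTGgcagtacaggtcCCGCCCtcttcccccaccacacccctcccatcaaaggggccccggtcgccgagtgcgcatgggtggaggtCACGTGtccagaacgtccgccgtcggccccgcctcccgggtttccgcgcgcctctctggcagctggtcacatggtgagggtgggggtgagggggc
Ccnd3: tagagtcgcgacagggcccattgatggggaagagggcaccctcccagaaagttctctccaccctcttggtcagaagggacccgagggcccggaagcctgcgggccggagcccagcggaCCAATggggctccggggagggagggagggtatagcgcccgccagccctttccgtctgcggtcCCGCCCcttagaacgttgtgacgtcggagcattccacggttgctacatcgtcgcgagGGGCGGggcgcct

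The Cdk4 window held 3 E-boxes, beginning 203, 183 and 95 bases before the start. Of 27457 rat promoter windows of the same length, 5.79% held at least 1 E-box and 16 windows (0.0583%) held at least 3. None of the other 4 member windows held the hexamer. All 5 held a GC box, as did 32.4% of all windows. An E2F site in any of the forms TTTCCCGC, TTTCGCGC, TTTGCCGC or TTTGGCGC was found in 0 of the 5 and in 1.81% of all windows.

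Read depth was similar across the samples, at 68529126 to 79591989 counts. Marker genes of other cell types differed between them. Summed FPKM (fragments per kilobase scaled to library size, a level per gene length) of 10 neutrophil and monocyte markers was 122.5 to 200.7 in sham and 1283, 8841 and 2013 in ischemia replicates 1 to 3. In edgeR 9 of the 10 were higher at adjusted p under 0.05, and Retnlg had no counts in sham. Summed FPKM of 5 atrial markers was 48344 and 39345 in sham replicates 1 and 3 but 215.5 in sham replicate 2, and 9610, 2078 and 1279 in ischemia replicates 1 to 3. Summed FPKM of 7 cardiomyocyte markers was 24484 to 40532 in sham and 11702 to 22006 in ischemia, so the groups did not overlap. Among them Myh6, Actc1 and Ryr2 were lower in every ischemia sample, and the other markers overlapped. The ventricular myosin light chains of this list were unevenly spread. Myl2 stood at 366.0 and 346.4 FPKM in sham replicates 1 and 3, against 2795 FPKM in sham replicate 2 and 594.2 to 1315 FPKM in ischemia. Myl3 stood at 796.0 and 1021 FPKM in the former, against 9024 FPKM and 3180 to 5780 FPKM. The same 2 sham samples were thus high in atrial and low in ventricular transcripts. On 3 Y-linked genes the library labelled sham replicate 1 carried 26 reads, while the remaining 5 libraries carried 1772 to 4318, and the rats were described as male. The range of each member's log2 fold change with 1 sample left out is given beside it, to show its dependence on single samples. Every such fit keeps at least 1 of the 2 atrial-high sham samples and the neutrophil and monocyte marker difference. These ranges therefore do not measure the part of cell content in a result.

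All 10 genes had a mean FPKM of at least 0.5, the level required for testing. Their levels spanned about 2 orders of magnitude, as the plot of FPKM by sample shows. In sham hearts Ccnd3 (62.6 ± 11.1 FPKM, SD, n = 3) and Cdk4 (55.4 ± 7.05) stood highest, and their ranges overlapped. Cdkn1b (19.6 ± 3.54) and Ccnd2 (18.7 ± 1.73) followed with overlapping ranges, and Ccnd1 (14.6 ± 2.93) lay below both Ccnd2 and, apart from its upper end, Cdkn1b. Cdk2 (4.40 ± 0.655) and Cdkn1c (3.02 ± 1.36) overlapped. Cdk6 (1.11 ± 0.175), Ccne1 (0.760 ± 0.465) and Ccne2 (0.687 ± 0.215) were lowest, with neighbours that overlapped. Among the 13964 tested genes Cdk4 ranked at the 92.1 percentile of mean FPKM and Ccne2 at the 4.65 percentile.

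**Figure D1:**
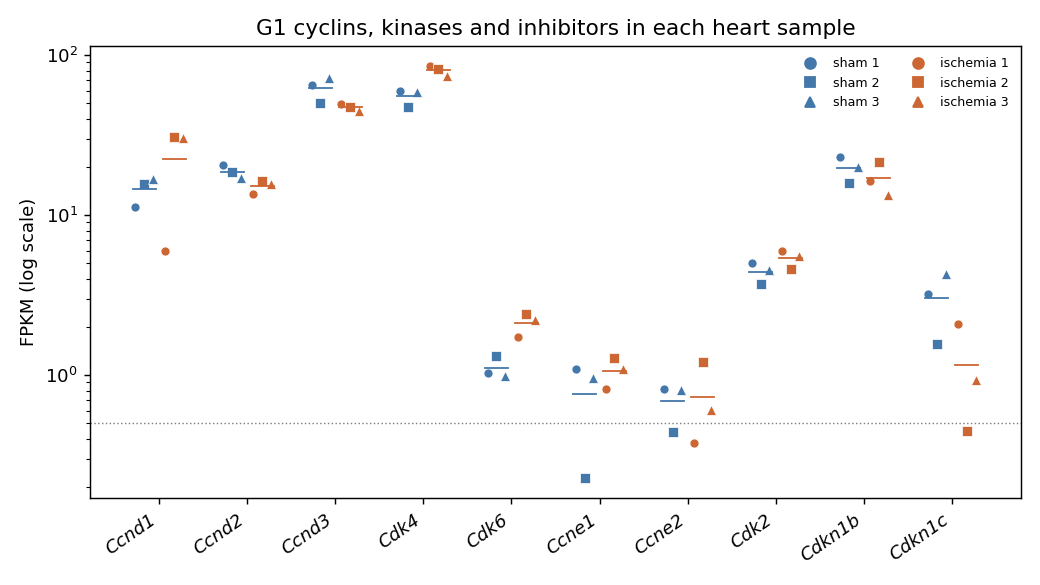
FPKM (log axis) of the 10 genes in 3 sham (blue) and 3 ischemia (orange) samples, with 1 symbol per sample and a bar at each group mean; the dotted line is 0.5 FPKM. The groups are apart for Ccnd2, Ccnd3, Cdk4 and Cdk6, and ischemia replicate 1 lies far below the other ischemia samples for Ccnd1.

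In ischemia Cdk4 (80.4 ± 5.56 FPKM, SD, n = 3) stood alone at the top and Ccnd3 (47.2 ± 2.09) was next, each clear of its neighbour. The ranges of Ccnd1 (22.3 ± 14.2), Cdkn1b (17.05 ± 4.10) and Ccnd2 (15.2 ± 1.44) ran into each other. Cdk6 (2.13 ± 0.352) now had a higher mean than Cdkn1c (1.16 ± 0.839), although their ranges overlapped.

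The comparison of ischemia with sham asks which genes differ after 30 min of ligation of the left anterior descending coronary artery. The samples compared also differed in cell type markers. By the edgeR quasi-likelihood test at an adjusted p under 0.05, 0 of the 10 members were called, where 6.71% of all tested genes were (5.18% higher and 1.53% lower). At an unadjusted p under 0.05 there were 2 (Cdk4 and Ccnd3), against 32.4% of all tested genes. DESeq2 called the same 2 genes, in a background of 27.5%, and limma called 0. The FPKM of the groups did not overlap for 2 genes that were higher in ischemia (Cdk4 and Cdk6; background 23.6%) and 2 that were lower (Ccnd2 and Ccnd3; background 15%), 4 of 10 against 38.6% of all tested genes in either direction. These counts are close to or below what the whole table gives. Because the samples are tissue, fewer cells of a type and less RNA per cell cannot be told apart in any of the values that follow.

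**Figure D2:**
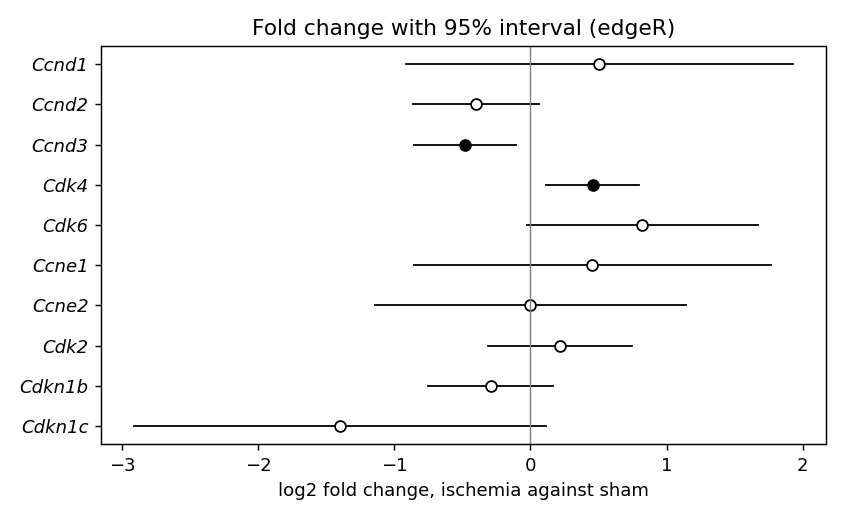
Log2 fold change of each gene in ischemia against sham (points) with its 95% interval from the edgeR fit (lines), not adjusted for the number of genes; filled points have an unadjusted p under 0.05. The intervals of Ccnd3 and Cdk4 lie clear of 0, on opposite sides, and those of Ccnd1, Ccne1, Ccne2 and Cdkn1c are the widest.

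Among the D-type cyclins, Ccnd3 is the form most abundant in these hearts. Its gene lies at chr9:15404822-15410943 on the minus strand (coordinates here and below as the table lists them, since the genome build is not given in the sources used here). In replicates 1 to 3 of sham, Ccnd3 stood at 65.4, 50.3 and 72.0 FPKM, against 49.2, 47.3 and 45.1 FPKM in replicates 1 to 3 of ischemia. Every ischemia sample was below every sham sample, although sham replicate 2 was close to ischemia replicate 1. The summed atrial markers were likewise lowest of the sham group in sham replicate 2 (48344, 215.5 and 39345 FPKM in replicates 1 to 3). In ischemia they were 9610, 2078 and 1279 FPKM, the order of Ccnd3 in FPKM. In scaled CPM Ccnd3 was higher in ischemia replicate 3 (91.7) than in replicate 2 (84.6). So were the atrial markers Myl7 (27.0 and 19.3), Myl4 (10.3 and 9.93) and Sln (1.21 and 1.09), while Nppa (1181 and 1702) and Bmp10 (0.120 and 0.262) were lower. The part of these cells in the result was not tested. Its log2 fold change came to -0.48 ± 0.16 (SE; 95% interval -0.85 to -0.11), a level 1.39-fold lower in ischemia, with an edgeR adjusted p of 0.0993. DESeq2 gave -0.51 with an adjusted p of 0.00323. With 1 sample left out the edgeR value ran from -0.53 to -0.43.

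Ccnd2, which shares the kinase partners of Ccnd3, was also lower in each ischemia sample. Sham samples read 20.5, 18.7 and 17.03 FPKM and ischemia samples 13.6, 16.4 and 15.6 FPKM, so the groups were separated by a narrow gap. This is a log2 fold change of -0.40 ± 0.19 (SE; 95% interval -0.86 to 0.07; edgeR adjusted p 0.200), and of -0.51 to -0.29 with 1 sample left out.

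Ccnd1, the D-type cyclin best known as a target of growth factor signaling, split the ischemia group. Sham samples read 11.3, 15.6 and 16.9 FPKM, whereas ischemia replicate 1 read 5.97 FPKM and the other ischemia samples 30.7 and 30.3 FPKM. The lowest sample and the 2 highest samples of the series were thus all ischemia samples. The underlying counts were 1907 in ischemia replicate 1 against 8930 and 8324 in the others, far more than counting error. The fitted log2 fold change of 0.50 had a 95% interval from -0.92 to 1.93 (edgeR adjusted p 0.572). Without ischemia replicate 1 it was 0.94, with an unadjusted p of 0.0140 and an edgeR adjusted p of 0.0617, while without ischemia replicate 3 it was 0.15 (edgeR adjusted p 0.903), the ends of the range over the 6 omissions. Ischemia replicate 1 also had the highest atrial markers of its group, at 9610 FPKM, and summed FPKM of 4 adipocyte markers of 18.8 against 0.372 and 0.207. In sham replicates 1 to 3, Ccnd1 of 11.3, 15.6 and 16.9 FPKM stood beside atrial sums of 48344, 215.5 and 39345 FPKM. The part of these cells in the result was not tested.

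The make-up of the D-type pool followed from these values. Ccnd3 made up 67.3%, 59.5% and 68.0% of the summed D-type FPKM in sham and 71.5%, 50.1% and 49.6% in ischemia replicates 1 to 3. Ccnd1 made up 11.6%, 18.4% and 15.9% in sham, 8.67% in the first ischemia sample and 32.5% and 33.3% in the other ischemia samples. Ccnd2 held between 16.1% and 22.1% in all 6 samples. The sum of the 3 cyclins was 84.6 to 105.9 FPKM in sham and 68.8 to 94.5 FPKM in ischemia, so the ranges overlapped. Within a sample the log2 ratio of Ccnd1 to Ccnd2 averaged -0.38 ± 0.44 (SD, n = 3) in sham and 0.22 ± 1.23 in ischemia (two-sided exact permutation p 0.5). That of Ccnd3 to Ccnd2 was 1.73 ± 0.33 and 1.64 ± 0.19 (exact permutation p 0.7). Such ratios do not depend on how libraries are scaled. With 3 samples against 3 the smallest p this test can give is 0.1, and over the 5 ratios compared the adjusted values were 0.5 to 0.7.

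**Figure D3:**
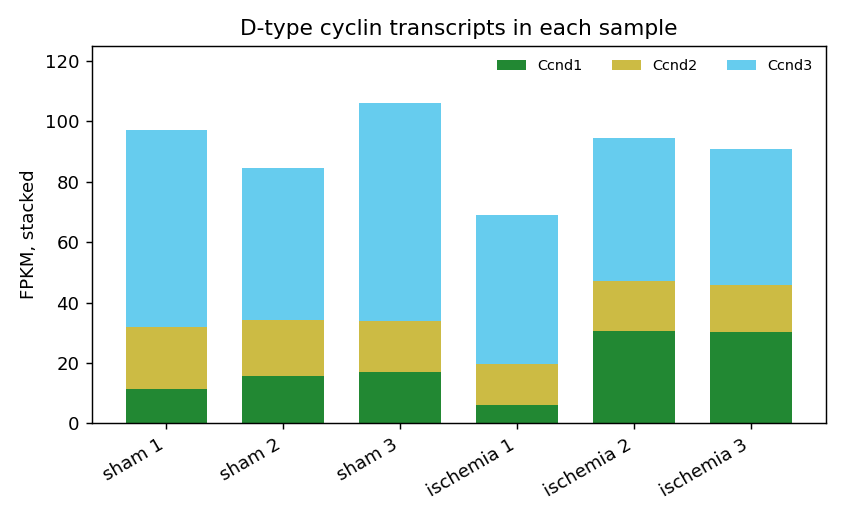
FPKM of Ccnd1, Ccnd2 and Ccnd3 stacked for each of the 6 samples (bars start at 0). Ccnd3 is the thickest layer in each sample, and the Ccnd1 layer is thin in ischemia replicate 1 and thicker than the Ccnd2 layer in ischemia replicates 2 and 3.

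Cdk4, a kinase partner of D-type cyclins and the more abundant of the pair at the transcript level, lies at chr7:70349863-70352418 on the plus strand. Sham samples held 59.8, 47.3 and 59.1 FPKM and ischemia samples 84.9, 82.1 and 74.2 FPKM. Every ischemia sample was above every sham sample. These levels rest on 3492 to 4154 reads per sham sample and 4801 to 6382 per ischemia sample. The fit gave a log2 fold change of 0.46 ± 0.14 (SE; 95% interval 0.12 to 0.80), a level 1.37-fold higher in ischemia. The edgeR adjusted p was 0.0908, and DESeq2 gave 0.43 with an adjusted p of 0.00658. With 1 sample left out the edgeR value ran from 0.39 to 0.49. The neutrophil and monocyte markers were also higher in ischemia (1283, 8841 and 2013 FPKM in replicates 1 to 3), with the lowest sum in replicate 1, where Cdk4 was highest, and their part in the result was not tested.

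A neighbouring gene, Tspan31, overlaps Cdk4 by 168 bases on the opposite strand, and whether counting used strand was not stated. FPKM of Tspan31 was 24.9 to 39.6 in sham and 36.0 to 38.7 in ischemia, and the part of its reads in the Cdk4 values was not tested.

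Cdk6, the other D-type cyclin kinase, is expressed strongly in many blood cell types. Its level was far below that of Cdk4, with a linear FPKM ratio of 0.0167 to 0.0299. Sham samples held 1.03, 1.31 and 0.986 FPKM and ischemia samples 1.74, 2.43 and 2.21 FPKM, again with every ischemia sample above every sham sample. Counts were low, from 107 to 159 in sham and from 215 to 273 in ischemia. The exact 95% Poisson intervals of the highest sham count (135.2 to 185.7) and the lowest ischemia count (187.2 to 245.7) did not meet. These are raw counts, not scaled to library size. In scaled CPM the same samples, sham replicate 2 and ischemia replicate 1, lay closer, at 2.43 and 2.66. A separation beyond counting error can therefore not be read from these intervals. Intervals of this kind cover counting error only. On the log2 scale the difference was 0.82 ± 0.35 (SE; 95% interval -0.03 to 1.67; edgeR adjusted p 0.163), and 0.69 to 1.09 with 1 sample left out. Ischemia replicate 1 was the lowest of its group both for Cdk6 and for the summed neutrophil and monocyte markers. Replicate 2 was above replicate 3 for the markers and for Cdk6 in FPKM, but for Cdk6 in scaled CPM, the scale of the fit, replicate 3 (3.54) was above replicate 2 (3.41). The part of these cells in the result was not tested. The log2 ratio of Cdk6 to Cdk4 was -5.64 ± 0.41 (SD, n = 3) in sham and -5.25 ± 0.31 in ischemia (exact permutation p 0.2).

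By group mean the E-type cyclins were the scarcest of the family, although the range of Ccne1 overlapped that of Cdk6 in sham and that of Cdkn1c in ischemia. For Ccne1, FPKM of sham samples was 1.09, 0.228 and 0.957, and that of ischemia samples 0.819, 1.27 and 1.09. Sham replicate 2 stood apart with 37 counts (exact 95% Poisson interval 26.1 to 51.0), while the other 5 samples had 132 to 187 counts. Its log2 fold change of 0.45 had a 95% interval from -0.86 to 1.77 (edgeR adjusted p 0.582), and without sham replicate 2 it was 0.056, the low end of a range up to 0.78 without sham replicate 1.

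Ccne2 varied as much within the groups as between them. Sham samples read 0.819, 0.439 and 0.803 FPKM and ischemia samples 0.375, 1.2004 and 0.606 FPKM, the latter holding both the lowest and the highest value. Its log2 fold change was -0.00076 with a 95% interval from -1.15 to 1.14 (edgeR adjusted p 0.999), and it ran from -0.48 to 0.29 with 1 sample left out, so the data leave the direction undetermined. The gene shares 521 bases with Ints8 on the opposite strand, and Ints8, like Ccne2, was highest in ischemia replicate 2 (10.2 FPKM, against 3.48 to 7.47 FPKM in the other samples).

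Cdk2, the partner of cyclin E, read 4.995, 3.70 and 4.51 FPKM in the sham samples, and 5.96, 4.62 and 5.55 FPKM in the ischemia samples. The groups overlapped through ischemia replicate 2. Its log2 fold change was 0.22 ± 0.22 (SE; 95% interval -0.31 to 0.75; edgeR adjusted p 0.512), with 0.12 without ischemia replicate 1 and 0.35 without ischemia replicate 2 as the ends of its range. The log2 ratio of Ccne1 to Ccne2 was -0.091 ± 0.74 (SD, n = 3) in sham and 0.69 ± 0.54 in ischemia (exact permutation p 0.3).

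Of the inhibitors, Cdkn1c had the lowest log2 fold change of the 10 genes and also the largest spread. Its gene lies at chr1:216661080-216663721 on the minus strand, 1.43 Mb from Ccnd1. Sham samples had 3.24, 1.56 and 4.26 FPKM, ischemia samples 2.08, 0.450 and 0.932 FPKM. Ischemia replicate 1 lay above sham replicate 2, so the groups overlapped, and ischemia replicates 2 and 3 were below all other samples. Counts in these were 70 (exact 95% Poisson interval 54.6 to 88.4) and 136 (114.1 to 160.9), against 260 to 632 in sham. The resulting log2 fold change of -1.40 ± 0.63 (SE; 95% interval -2.91 to 0.11) had an edgeR adjusted p of 0.176. Leaving out ischemia replicate 1 moved it to -2.15 (edgeR adjusted p 0.0547) and leaving out ischemia replicate 2 to -1.004 (edgeR adjusted p 0.264), the ends of its range.

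Summed markers of some other cells moved with Cdkn1c. The samples with the most Cdkn1c were sham replicates 3 and 1 and ischemia replicate 1, and these also had the highest summed FPKM of 5 atrial markers (39345, 48344 and 9610) and of 4 fibroblast markers (978.7, 556.2 and 408.3). In sham replicate 2 and ischemia replicates 2 and 3 the fibroblast sum was 302.2, 212.2 and 166.8. The atrial sum in these was 215.5, 2078 and 1279, so sham replicate 2 had the lowest atrial sum. It had more Cdkn1c (1.56 FPKM) than the other 2 samples. The order of these atrial sums was that of Nppa (67.7, 2051 and 1251 FPKM). In FPKM Myl7, Myl4, Sln (15.9, 3.89 and 3.80) and Bmp10 were each higher in sham replicate 2 than in the other 2 samples, as Cdkn1c was. Summed FPKM of 5 mural cell markers was 269.5, 206.4 and 888.0 in sham and 277.8, 87.5 and 120.1 in ischemia. This sum was also lowest in the 3 samples with the least Cdkn1c, as were Acta2, Myh11 and Tagln singly. Rgs5 was not, at 84.8 FPKM in sham replicate 2 against 83.0 in sham replicate 3 and 54.9 in ischemia replicate 1. Nor was Pdgfrb, at 11.39 FPKM in ischemia replicate 3 against 11.05 in ischemia replicate 1. The part of these cells in the result was not tested.

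Cdkn1b was more abundant and steadier. Sham samples held 23.0, 15.9 and 20.0 FPKM, ischemia samples 16.3, 21.5 and 13.4 FPKM, with groups that overlapped widely. The fit gave -0.29 ± 0.19 (log2 fold change, SE; 95% interval -0.75 to 0.17; edgeR adjusted p 0.316), with -0.44 without ischemia replicate 2 and -0.18 without ischemia replicate 3 as the ends of its range. The log2 ratio of Cdkn1c to Cdkn1b was -2.80 ± 0.56 (SD, n = 3) in sham and -4.13 ± 1.33 in ischemia (exact permutation p 0.2), a difference of -1.33 that was -0.60 without ischemia replicate 2 and -1.91 without ischemia replicate 1.

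The wider pathway was described with 6 lists of other cell cycle genes. In all, 9 of 65 tested genes of these lists passed an edgeR adjusted p of 0.05, 7 of them higher and 2 lower in ischemia, where 5.18% of all tested genes were called higher and 1.53% lower. Each of the 9 calls was lost when some single sample was left out. When any 1 sham sample or ischemia replicate 3 was left out, edgeR called 0 genes in the whole table, with 3020 to 3809 genes at an unadjusted p under 0.05. Without ischemia replicate 2, Mcm3 was the 1 call left among the 6 lists.

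**Figure D4:**
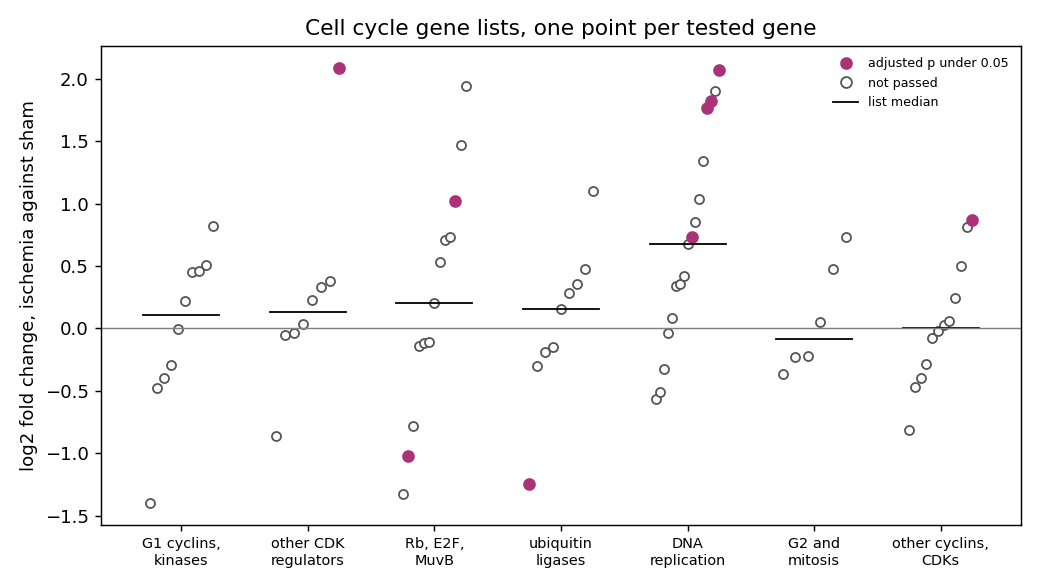
Log2 fold change in ischemia against sham of each tested gene of the G1 family and of 6 other cell cycle lists (1 point per gene; filled points have an edgeR adjusted p under 0.05; bars are list medians). The G1 family holds no filled point, and the DNA replication list holds 4, all above 0, with a median of 0.68.

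Upstream of the kinases, 1 of 8 tested genes among the other CDK regulators passed, where 6.71% of all tested genes did. A single call in a list of this size, here and in the lists that follow, is near that background. Cdkn1a (p21), an inhibitor of the same family as Cdkn1b and Cdkn1c, rose 4.26-fold (log2 fold change 2.09 ± 0.42, SE; edgeR adjusted p 0.0445). Cdkn1a stood at 16.9, 33.0 and 16.7 FPKM in the sham samples, and at 78.6, 123.5 and 113.3 FPKM in the ischemia samples. The 3 inhibitors of this family thus had log2 fold changes of 2.09, -0.29 and -1.40, of which the first passed. Cdkn2a and Cdkn2b were below the level tested.

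Downstream, among 13 tested genes of the pocket protein, E2F and MuvB list, 1 rose and 1 fell, and the list median was 0.20 against -0.0015 over all tested genes. E2f4, an E2F that acts mainly as a repressor with pocket proteins, rose 2.02-fold, from 12.4, 12.0 and 16.2 FPKM in sham to 24.8, 34.4 and 28.2 FPKM in ischemia (edgeR adjusted p 0.0372). Rbl2 (p130), the pocket protein typical of resting cells, fell 2.04-fold, from 8.95, 6.01 and 7.86 FPKM to 4.46, 4.02 and 3.33 FPKM (edgeR adjusted p 0.0372). Of 9 ubiquitin ligase genes 1 passed, Fbxw7, the receptor that marks cyclin E for destruction. It fell 2.37-fold, from 7.96, 4.95 and 4.95 FPKM to 2.85, 3.23 and 1.94 FPKM (edgeR adjusted p 0.0485), while Ccne1 and Ccne2 showed no change past the test.

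The DNA replication list held the most calls. Of 17 tested genes 4 rose and 0 fell, where 5.18% of all tested genes were called higher, and the list median was 0.68. All 4 encode subunits of the MCM helicase, which is loaded on DNA in G1. Mcm3 rose 4.20-fold, from 1.78, 1.19 and 1.60 FPKM in sham to 4.81, 7.53 and 7.88 FPKM in ischemia (edgeR adjusted p 0.0272). Mcm5 rose 3.54-fold (edgeR adjusted p 0.0492), Mcm6 3.41-fold (0.0379) and Mcm7 1.66-fold (0.0484). For all 4 the ischemia samples were above the sham samples, and ischemia replicate 1 was the lowest of its group. The summed FPKM of the list was 64.2 to 97.2 in sham and 107.2, 172.2 and 141.1 in ischemia replicates 1 to 3. These sums ranked the ischemia samples as the neutrophil and monocyte markers did, but Mcm3 and Mcm5 were higher in ischemia replicate 3 than in replicate 2, and the sham samples ranked differently (97.2, 64.2 and 87.8 FPKM for the list, 162.0, 122.5 and 200.7 FPKM for the markers). The part of these cells in the result was not tested.

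**Figure D5:**
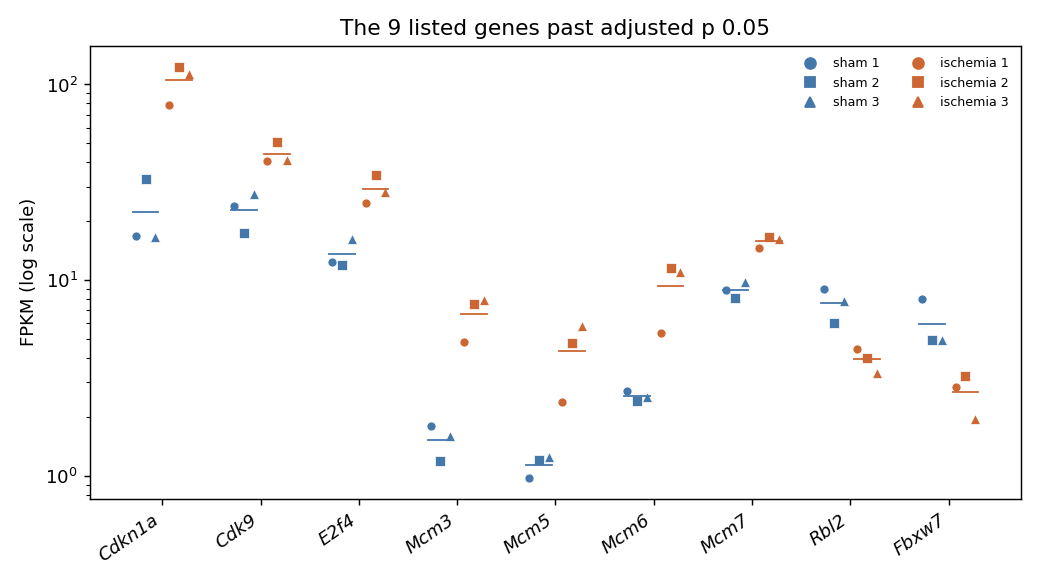
FPKM (log axis) in 3 sham (blue) and 3 ischemia (orange) samples of the 9 listed cell cycle genes past an edgeR adjusted p of 0.05, with bars at the group means. The groups are apart for each gene, with Rbl2 and Fbxw7 lower and the other 7 higher in ischemia.

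The same E2F forms were searched in the promoter windows of the lists. Of 14 windows of DNA replication genes 6 held at least 1 of the 4 forms, namely Mcm2, Mcm5, Mcm6, Mcm7, Pola1 and Tyms. Of these Mcm2 (log2 fold change 0.68), Pola1 (0.084) and Tyms (-0.56, the lowest of the list) did not pass the test, and they are named after their values were seen. The window of Mcm3, the gene with the highest fold of the 4 called, held GC and CCAAT boxes but none of the E2F forms. In the other lists a form was found in 1 of 10 windows (CDK regulators), 3 of 12 (pocket proteins and E2F), 0 of 8 (ubiquitin ligases), 1 of 14 (G2 and mitosis) and 0 of 14 (other cyclins and CDKs). A stretch of each of the 3 called genes with a form is shown, with E2F forms in capitals, at chr19:13488586-13488625 (plus strand), chr13:42404466-42404505 (minus strand) and chr12:22163205-22163244 (minus strand) of GRCr8. In Mcm5 and Mcm6 a form on each strand overlapped.
Mcm5: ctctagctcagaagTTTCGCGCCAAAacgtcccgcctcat
Mcm6: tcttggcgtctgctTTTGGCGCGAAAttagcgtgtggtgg
Mcm7: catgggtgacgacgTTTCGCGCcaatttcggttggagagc

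The motifs were then set beside the changes of all tested genes with a window. Of 311 genes with an E2F form 6.11% were called higher and 0.643% lower, against 5.47% and 1.57% of 9354 genes without one. Of 790 genes with an E-box 6.20% were called higher and 1.01% lower, against 5.43% and 1.59% of 8875 genes without one and 4.94% and 1.23% of the 81 genes with at least 2. The log2 fold change was positive for 55.2%, 48.3% and 46.9% of these. Among the 12 tested genes with at least 3 E-boxes, Cdk4 included, 2 (16.7%) were called higher, Amdhd2 and Apex1, and 6 had a positive log2 fold change.

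Genes of G2 and mitosis were detected at low levels. Of 16 listed genes 6 reached the mean of 0.5 FPKM required for testing, and edgeR called 0 of them, with 0 at an unadjusted p under 0.05 and 0 called by DESeq2 or limma. Their log2 fold changes ran from -0.37 for Plk1 and -0.23 for Birc5 to 0.48 for Cdc20 and 0.74 for Aurka. The proliferation marker Mki67 had a mean of 0.294 FPKM in sham and 0.348 FPKM in ischemia, and Ccna2, the S phase cyclin, 0.459 and 0.467 FPKM. Both were below the level tested, and they were chosen for mention after their values were seen. Of the 12 tested cyclins and CDKs outside the G1 step, Cdk9, a kinase of transcription elongation, rose 1.83-fold (edgeR adjusted p 0.0387), and the median was 0.0021.

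The genes whose pattern over the 6 samples was most like that of Cdk4, the member with the smallest p, were Alg14, Snrpd2, Umps, Colgalt1 and Rpl19. Likeness was the root mean square difference of log2 CPM (counts scaled to library size) centred on each gene's mean, and it was 0.044 to 0.051 over 6 samples for these 5 genes. Their log2 fold changes were 0.39 to 0.47, and none passed an edgeR adjusted p of 0.05 (0.114 to 0.142).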

How the data were processed

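Raw counts per gene, deposited by the authors, were whole numbers without normalization. FPKM had also been computed by the authors, with 0.0001 written for genes without reads. The ratio of count to FPKM, taken for each gene relative to its ratio in sham replicate 1, was 1 constant factor per sample (within 1%) for 99.98% of 9998 well-covered genes. The submitters' processing notes name STAR and HTSeq; versions and genome build are not given in the sources used here.

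Genes whose FPKM averaged 0.5 or more (13964) entered the fit. Their counts were scaled by TMM and tested with edgeR 4.0.16 (quasi-likelihood, no covariates), two-sided, with Benjamini-Hochberg adjustment over all tested genes. No test was stated for RNA-seq in the study. Alternatives were DESeq2 1.42.0, limma 3.58.1 on log2(FPKM + 0.1) and log2(FPKM + 1), other scalings and filters, the replicate number as a block, and each sample left out (R 4.3.3). Fits were tested on simulated data. Ratios within a sample used exact permutation tests (SciPy 1.17.1). Figures used matplotlib 3.10.9.

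The members and gene lists were chosen with earlier results of these data known. Named were all members, listed genes past the adjusted threshold (or, in a list without any, its 2 highest and 2 lowest log2 fold changes), and the 5 genes most like the member with the smallest p. Of 10 marker lists, the macrophage, lymphocyte, endothelial, mural and erythroid lists had median log2 fold changes of -0.033, 0.77, -0.069, -1.43 and -0.045, with 1, 0, 0, 0 and 0 genes past the threshold. For the cardiomyocyte, atrial, neutrophil and monocyte, fibroblast and adipocyte lists these were -0.59, -3.66, 6.41, -0.73 and -3.66, with 0, 0, 9, 0 and 0 genes. The study describes its RNA-seq heat map as representative of 3 independent experiments, but the labels do not say how the replicates relate to these, so p-values measure the spread between these samples, which may be partly technical. Total counts were 68529126 to 79591989, at which 3 counts are 0.0377 to 0.0438 CPM.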

Additional observations from a re-analysis of the deposited data

How the results depend on the processing

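Over the alternatives, 9 of the 10 members kept the sign of their log2 fold change in every fit, the exception being Ccne2, and DESeq2 was the only fit to call any (1 higher and 1 lower). Cdk4 ranged from 0.39 to 0.54 (adjusted p 0.00658 to 0.240) and Ccnd3 from -0.53 to -0.38 (0.00323 to 0.256). Ccne2 turned positive with total counts (0.087), with limma on log2(FPKM + 1) (0.014), without the expression filter (0.016), and without sham replicate 1 (0.10), sham replicate 3 (0.076), ischemia replicate 1 (0.29) or ischemia replicate 3 (0.068). With 1 sample left out Ccne2 ran from -0.48 to 0.29, Plk1 from -0.999 to 0.028 (positive without ischemia replicate 1), Birc5 from -0.49 to 0.17 (positive without sham replicate 3), and the difference in the log2 ratio of Ccnd3 to Ccnd2 from -0.24 to 0.085 (positive without sham replicate 3). Cdc20 ran from 0.29 to 0.64 and Aurka from 0.27 to 0.94 over the same omissions. The difference in the log2 ratio of Ccnd1 to Ccnd2 ran from 0.23 to 1.31. That of Ccne1 to Ccne2 ran from 0.35 to 1.08 and that of Cdk6 to Cdk4 from 0.26 to 0.63.

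With DESeq2, 8 DNA replication genes were called higher, 3 Rb and E2F genes higher and 2 lower, 1 ubiquitin ligase gene higher, 1 other cyclin or CDK lower, 26 higher and 4 lower genes of the table's cell cycle pathway, and 2071 higher and 1742 lower genes in all. DNA replication calls were 2 with limma on log2(FPKM + 1), at a mean FPKM of at least 5, with median-ratio or upper-quartile factors and without the filter. Calls of lower Rb and E2F genes, lower cell cycle pathway genes and the higher Cdk9 were 0 with both limma fits and with total counts. The lower Fbxw7 was not called (0) with these or without the filter, and Cdkn1a was not called (0) without the filter. Lower genes in all were 93 without the filter and 83 with total counts, which moved the median of all genes by 0.089. At a mean FPKM of at least 5 the members Ccne1, Ccne2, Cdk2, Cdk6 and Cdkn1c, all G2 and mitosis genes, Fbxw7, Mcm3 and Mcm5 were not tested, which left 0 ubiquitin ligase calls and accounts for the lost DNA replication calls there. The cause of the other differences was not tested.

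Leaving out 1 sample gave 0 to 1 calls among CDK regulators, 0 to 2 higher and 0 to 2 lower in the Rb and E2F list, 0 to 1 lower among ubiquitin ligases, 0 to 5 higher in DNA replication and 0 to 1 higher among other cyclins and CDKs. The cell cycle pathway had 0 to 17 higher and 0 to 2 lower, and all genes 0 to 1490 higher and 0 to 1115 lower.

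Nothing in the labels ties equal replicate numbers together. Deviations from the group means correlated at -0.115 on average between samples sharing a number and at 0.055 between the others. Deviations within a group sum to 0, so these correlations constrain each other and cannot settle whether samples with equal numbers share a batch. With the replicate block 0 genes were called, higher or lower, in each list and in all, while 3349 genes had an unadjusted p under 0.05, and Cdk4 was 0.45 and Ccnd3 -0.48.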

Other observations

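The table's own annotation assigns 124 genes to a cell cycle pathway, a list used after the values had been seen. Of these, 105 were tested, 9 rose and 1 fell in ischemia at an edgeR adjusted p under 0.05 (5.18% and 1.53% of all tested genes did), and the median log2 fold change was 0.29 against -0.0015 over all tested genes. With 1 sample left out the pathway median ran from 0.16 to 0.31. Without the G1 cyclins, kinases and inhibitors the 95 remaining genes had 9 higher and 1 lower, with 63 above 0. Rising genes included Cdkn1a, E2f4, Mcm3, Mcm5, Mcm6 and Mcm7, and the gene that fell was Rbl2. Below the level tested, the replication licensing genes Cdc6 and Orc1, named after their values were seen, had FPKM of 0.107 to 0.143 and 0.0429 to 0.167 in sham. In ischemia replicate 1 they stood at 0.137 and 0.156, within the sham range, and in ischemia replicates 2 and 3 at 0.825 and 0.669 (Cdc6) and 0.747 and 0.813 (Orc1).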
